A study of Mus musculus with 8 samples.

Results

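The early response of differentiating mouse embryonic stem cells to Oct6 was read by setting an Oct6-induced embryoid body library against the control library of the same day, day 2. These are 2 of the 8 samples of the series. Of the 22558 genes in the expression table, the 12586 that reached 1 FPKM in at least 1 of the pair were compared, as the difference of log2(FPKM + 1), induced minus control. FPKM scales the number of sequenced fragments to transcript length and to library size, so levels can be set side by side between genes. On this scale the fold of a weakly expressed gene is understated. A gene was counted as higher or lower when this difference was at least 1 in size, a 2-fold step, and these words are used below in that sense. Each arm had 1 library, so no value has a replicate check and no test was made.

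The cells came from the mouse embryonic stem cell lines R1 and R1/E, grown on feeder cells before differentiation as floating aggregates called embryoid bodies. The control arm is labelled only as control, and the induced arm as cells with doxycycline-inducible Oct6 overexpression. The series also holds the same pair of arms at day 4 and day 6, and at day 4 an Oct6 chromatin immunoprecipitation (ChIP) library with its input. The study asked what Oct6 does in neural differentiation. Only the titles of induced libraries name doxycycline, and a shared line or clone for the arms is not stated. Effects of the drug or of the line therefore cannot be told apart from effects of Oct6. The protocol speaks of serum-free neural differentiation, whereas the titles carry the prefix fbs, which the labels leave unexplained. The table gives 1 value for the gene Pou3f1, so transgene and endogenous transcripts cannot be told apart either.

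Oct6, encoded by Pou3f1, is a transcription factor of the class III POU family, proteins that bind octamer DNA through a POU-specific domain joined to a homeodomain. It is present in the epiblast before gastrulation, then in the anterior neural plate and in later neural cells, and it is best known for its role in myelinating Schwann cells. Embryonic stem cells that leave the naive state pass through an epiblast-like, primed state before they take up neural or mesendodermal fates.

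Low values move in steps of 1 fragment. From the commonest ratio of values below 0.3 FPKM in both libraries, the induced library held an estimated 0.801 times as many fragments as the control. With the commonest low step in control taken as 1 fragment, this was 28.4M against 35.5M. For a transcript of 2 kb, 1 fragment was then worth 0.0176 and 0.0141 FPKM. Both day 2 libraries carried a pluripotent profile. The naive pluripotency factor Nanog stood at 50.6 FPKM in control and 53 in induced cells, and Zfp42 (Rex1) at 104 and 106. Some defining markers of later lineages were near 0, namely the visceral endoderm carrier Afp at 0.0267 and 0.0334, the nascent mesoderm factor Mesp1 listed at 0 and at 0.0604, and the placental gene Tpbpa listed at 0 in both. Other genes of those lists were expressed, such as Apoe at 137 and 383, Eomes at 4.36 and 7.45 and Peg10 at 69.7 and 64.2. In bulk libraries such as these, fewer cells of a type and less RNA per cell cannot be told apart.

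Pou3f1 (chromosome 4, 124334889 to 124337899, plus strand, mm9) was at 64.3 FPKM in control and 312 in induced cells, a log2 difference of 2.26. The control level at day 2 was the highest of the control series, with 10.1 FPKM at day 4 and 4.76 at day 6, while the induced libraries held 222 and 86.8. The gene was therefore expressed in the uninduced control as well, and the step at day 2 was smaller than the 4.33 at day 4 and the 3.93 at day 6. Its class III relatives, brain factors with a similar DNA-binding domain, were low. Pou3f3 was at 0.192 and 1.77 FPKM and Pou3f4 at 0.198 and 1.34, and Pou3f2 did not reach 1 FPKM, at 0.139 and 0.182.

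Of the 12586 genes compared, 1223 (9.72%) were at least 2-fold higher in the induced library and 230 (1.83%) at least 2-fold lower, so 84.2% of the genes past the threshold were higher. At least 4-fold differences numbered 250 higher and 19 lower, and at least 8-fold differences 58 and 4. The median difference of all genes compared was 0.17. It became 0.04 when the libraries were scaled to a median ratio of 1 and -0.05 after quantile normalisation, and with the latter 61.8% of the genes past the threshold were higher. The excess of higher genes was present under both scalings, and its size depended on them. Of the 1223 higher genes, 503 were below 1 FPKM in control and 44 were listed at 0 there. Such genes entered through the induced library alone and could only differ upwards. Among the 11173 genes at 1 FPKM or more in both libraries, 720 (6.44%) were higher and 181 (1.62%) lower. Symbols of small RNAs and predicted genes made up 90 of the higher and 56 of the lower genes.

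**Figure D1:**
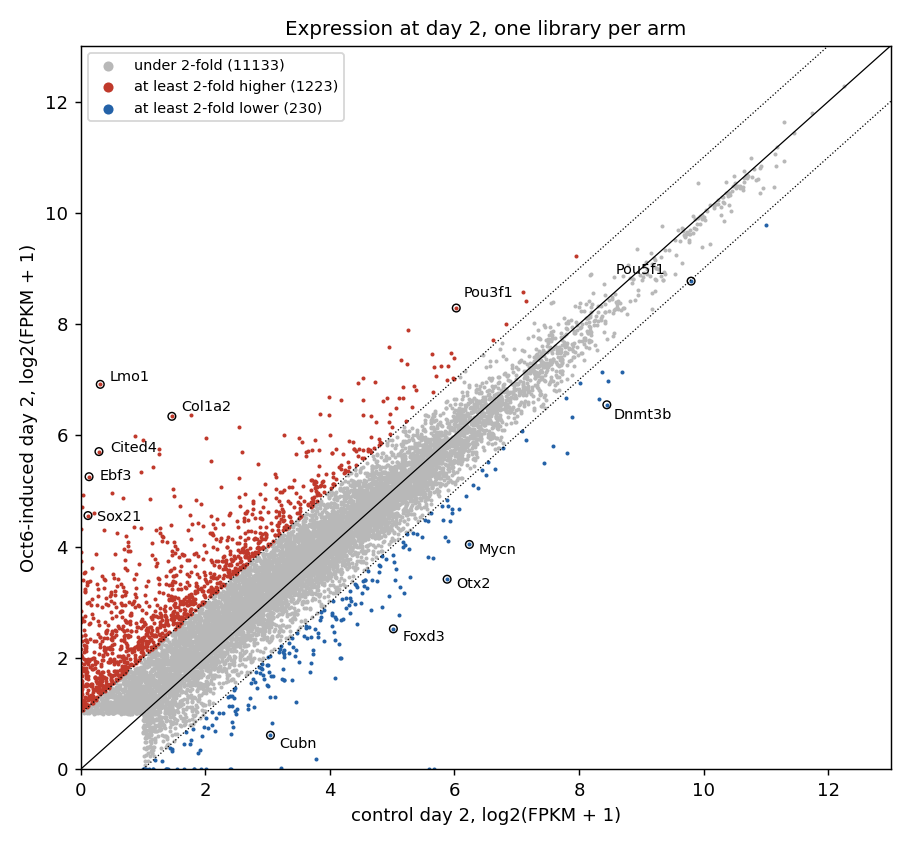
Expression of the 12586 genes compared at day 2. Each point is a gene, with log2(FPKM + 1) in the control library on the horizontal axis and in the Oct6-induced library on the vertical axis; the solid line marks equal levels, dotted lines a 2-fold step, and the 1223 higher genes are red and the 230 lower genes blue. Ringed genes are named, with Lmo1 farthest above the line of equal levels.

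Higher genes were mostly weakly expressed ones. Binned by the mean of both libraries, 15.7% of the 1822 genes under 2 FPKM and 17.0% of the 2200 genes from 2 to 5 FPKM were higher. From 20 to 100 FPKM this was 4.31% of 3204 genes, and at 100 FPKM or more 1.88% of 691 genes, where 2.17% were lower. Only in that top bin did lower genes outnumber higher ones. The median difference passed from 0.40 in the lowest bin to -0.13 in the highest. The median level of the 1223 higher genes was 1.57 FPKM in control and 7.29 in induced cells, and that of the 230 lower genes was 12.1 and 3.80. In summed FPKM, the higher genes held 1.34% of the control and 4.66% of the induced library. The lower genes held 2.31% and 0.885%.

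**Figure D2:**
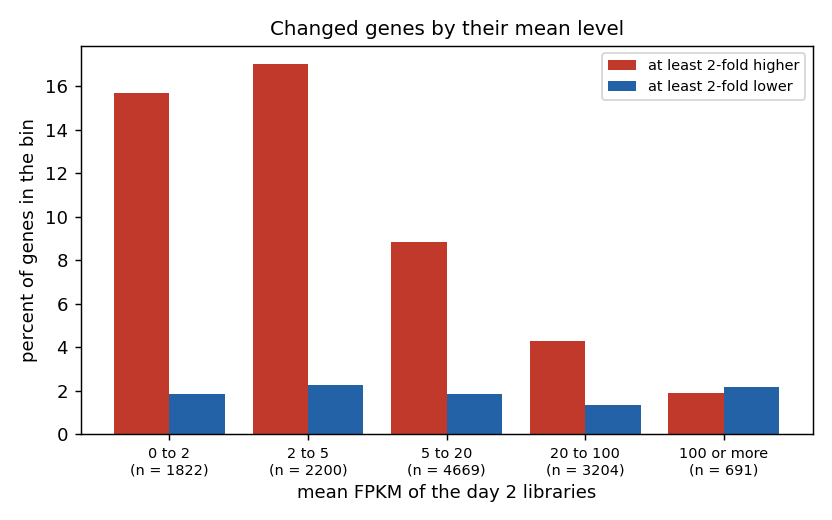
Share of genes at least 2-fold higher (red) or lower (blue) at day 2, in percent of each bin, by the mean FPKM of the 2 libraries. The red bars stand at 15.7% and 17.0% in the lowest bins and at 1.88% in the highest, where the blue bar stands at 2.17%.

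Higher genes lay on all large chromosomes, from 6.61% of the compared genes on the X to 15.1% on chromosome 3, and the median difference per chromosome ran from 0.10 on chromosome 7 to 0.24 on chromosomes 3 and 6. When a gene was higher, the next compared gene along the chromosome was also higher in 193 of 1203 cases (16.0%), against 9.76% after any gene. The median genomic span was 34732 bp for higher genes, 14634 bp for lower genes and 22627 bp for all genes compared.

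The gene with the largest difference was Lmo1 (chromosome 7, 116282086 to 116313822, minus strand), a LIM-only cofactor of transcription complexes in neural and lymphoid cells. It was at 0.244 FPKM in control and 120 in induced cells, a log2 difference of 6.6. It was nearly silent in the first and among well expressed genes in the second. Transcription factors of the neural lists followed closely. Ebf3 (chromosome 7, 144385356 to 144506128, minus strand), an Ebf factor of differentiating neurons, was at 0.0981 and 37.3 FPKM. Insm1, a zinc finger factor of newborn neurons and neuroendocrine cells, was at 1.0 and 59.7. Sox21, a SoxB2 factor of neural progenitors, was at 0.0853 and 22.6. All of these were at or near 1 FPKM or below in the control, so the differences set an active gene against one close to silence.

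Other leading genes code for cofactors, secreted proteins and membrane proteins. Cited4, a CBP/p300-binding coactivator, was at 0.226 and 51.3 FPKM. Shisa3, a protein of the endoplasmic reticulum that restrains Wnt and FGF receptors, was at 0.837 and 62.3. Plagl1, an imprinted zinc finger factor, was at 1.39 and 50. The cell adhesion molecule Cntn2, found on early axons, was at 0.952 and 39.8 FPKM. C1ql2, a secreted synaptic organiser, was at 0.0135 and 25.2, and Rgs4, a regulator of G protein signalling in neurons, at 0.0241 and 29.4. Tppp3, a tubulin-binding protein, was at 2.42 and 81.0. The collagen gene Col1a2 was at 1.76 and 80.2. The remaining genes of the 15 largest were Igfbpl1 (1.39 and 53.2 FPKM), Sct, which encodes the hormone secretin (0.412 and 30.4), and Egflam, which encodes the matrix protein pikachurin (0.154 and 23.4). The smallest log2 difference among the 15 was 4.39, that of Cntn2.

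**Figure D3:**
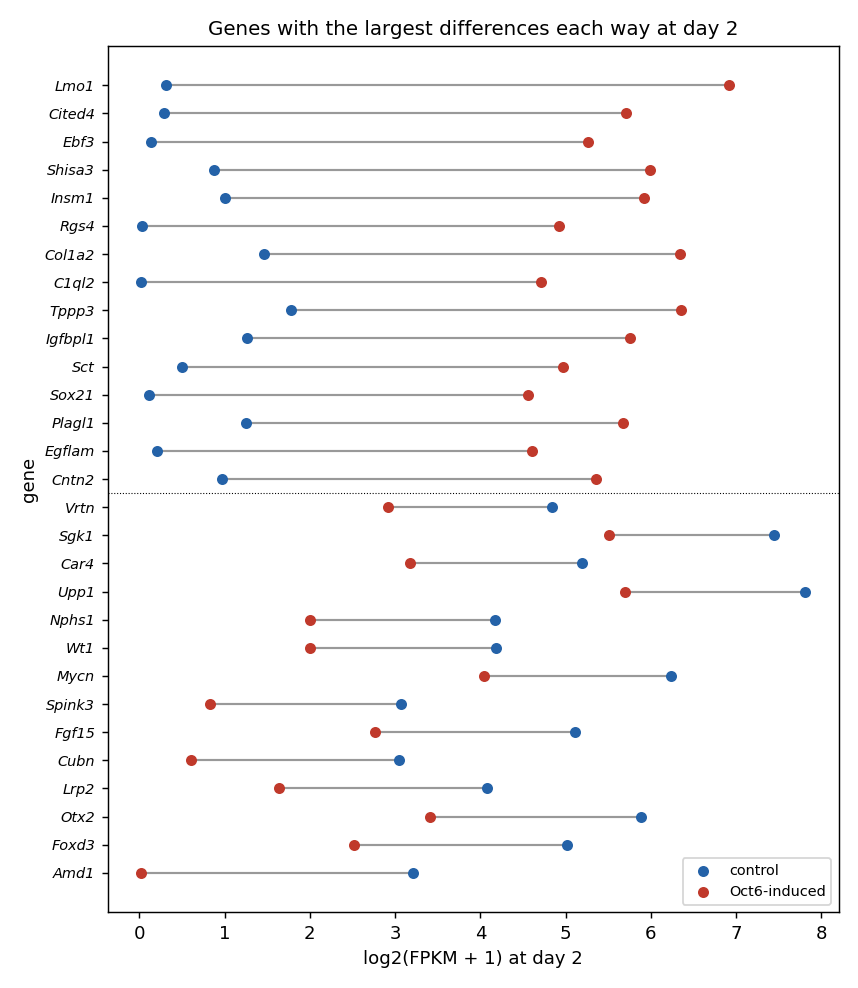
Genes with the largest differences in each direction at day 2, 15 higher and 14 lower, leaving out small RNAs, pseudogenes and predicted genes. Each line joins the control (blue) and Oct6-induced (red) level of a gene in log2(FPKM + 1), 1 library each; higher genes stand above the dotted line, led by Lmo1, and lower genes below it, with Amd1 at the foot.

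Lower genes included regulators of the primed epiblast. Foxd3 (chromosome 4, 99322990 to 99325362, plus strand), a forkhead factor of the epiblast and neural crest, was at 31.4 FPKM in control and 4.75 in induced cells, a log2 difference of -2.50. Otx2 (chromosome 14, 49277354 to 49287319, minus strand), a homeodomain factor of the primed epiblast and the anterior brain, was at 58.0 and 9.67, a difference of -2.47. Mycn, a Myc family growth regulator of stem and progenitor cells, was at 74.6 and 15.4. Fgf15, an FGF ligand of the early embryo, was at 33.4 and 5.81. These genes remained above 1 FPKM in the induced library.

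Other lower genes code for receptors and enzymes. The endocytic receptors Lrp2 (megalin) and Cubn (cubilin), partners in protein uptake, were at 15.9 and 2.12 FPKM and at 7.26 and 0.527. Nphs1, which encodes nephrin, was at 17.0 and 3.02, and Wt1, a zinc finger factor of kidney and gonad, at 17.2 and 3.02. Further lower genes were the kinase gene Sgk1 (173 and 44.5), the uridine phosphorylase Upp1 (224 and 50.7), the carbonic anhydrase Car4 (35.6 and 8.03), Spink3 (7.39 and 0.773) and Vrtn (27.7 and 6.52). The largest downward difference outside small RNAs, pseudogenes and predicted genes, that of Amd1 (8.28 and 0.0170 FPKM, -3.19), is uncertain. Amd1 has close copies in the mouse genome, and its order turned at day 4, with 0.0441 in control and 10.7 in induced cells.

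Among the 1453 genes past the threshold (11.5%), those nearest to it were Accn2 and Ube2e2 on the higher side and Mirlet7g and Tcl1 on the lower side. Kctd1 and Ctdsp2 lay just below a 2-fold increase, and 4930572J05Rik and Tmem40 just short of a 2-fold decrease.

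Proneural factors had 13 higher members. Of 36 proneural and neurogenic factors, genes that drive progenitors to become neurons, 21 were compared, and 1 of these was lower (median difference 1.15, against 0.17 over all genes). Over all genes 9.72% were higher and 1.83% lower. However, 13 of the 21 reached 1 FPKM only in the induced library. Of the 7 above 1 FPKM in both, 2 were higher, where 6.44% of all such genes were higher. The Ebf family was high throughout: Ebf1 was at 0.806 and 19.4 FPKM, Ebf2 at 0.0494 and 8.11, and Ebf4 at 0.146 and 5.61. The basic helix-loop-helix factors were less uniform. Neurod1 was at 4.19 and 22.7, Neurog1 at 0.0678 and 3.87, and Nhlh1 was listed at 0 in control and at 6.16 in induced cells. Neurog2 (0.0136 and 0.417) and Atoh1 (0.0425 and 0.0538) did not reach 1 FPKM in either library, and Neurog3 was lower, at 2.67 and 0.230.

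Neural progenitor genes had 8 higher members and no lower one, where 9.72% of all genes were higher and 1.83% lower. Of 29 listed, 18 were compared (median 0.86), and 9 of the 18 passed through the induced library alone and so had to be higher. Among the 9 above 1 FPKM in both libraries 1 was higher, against 6.44% of all such genes, with a median of 0.38. The members with the largest differences were patterning factors of the neural tube and a progenitor lipid carrier. Irx3 was at 0.655 and 17.3 FPKM, Nkx6-1 was listed at 0 in control and at 4.24 in induced cells, Irx5 was at 0.403 and 4.05, and the fatty acid binding protein Fabp7 at 0.418 and 4.21. General neural markers stayed below the threshold on the log2(FPKM + 1) scale. Sox1, the classical marker of the neural plate, was at 0.536 and 0.909, below 1 FPKM in both, Sox3 at 9.73 and 8.09, Pax6 at 1.09 and 2.57, and the intermediate filament Nes (nestin) at 2.75 and 5.80.

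Structural genes of neurons followed. Of 20 compared genes of the neuronal cytoskeleton and growth cone, 6 were higher and none lower (median 0.56). The shares over all genes were 9.72% and 1.83%. Among the 18 above 1 FPKM in both libraries the median was 0.51. Tubb3, the neuronal beta-tubulin, was at 15.4 and 50.7 FPKM, the growth cone protein Gap43 at 5.45 and 21.2, the neurofilament Nefl at 8.26 and 25.7, and the microtubule-associated kinase Dclk1 at 0.726 and 5.84. Dcx stayed below 1 FPKM, at 0.0438 and 0.719. Of the 20, 5 lay below 0, among them the neurofilament genes Ina (26.3 and 13.9) and Nefh (5.02 and 2.69). Of 22 compared synaptic vesicle genes 8 were higher, none lower (median 0.46, and 0.01 after quantile normalisation). Among them were Syp (synaptophysin) at 1.05 and 7.79 and Cplx2 (complexin) at 0.244 and 4.17. Of 17 compared channel and receptor genes 6 were higher, none lower (median 0.56), led by the calcium channel subunit Cacna2d1 at 2.14 and 13.4. Of these, 8 of the 22 synaptic and 7 of the 17 channel genes passed only through the induced library.

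Axon guidance genes, ligands and receptors that steer growth cones, were among the groups with the most higher members. Of 36 compared 18 were higher and 1 lower, against 9.72% and 1.83% of all genes (median 1.02). Receptors led the list. The semaphorin receptor Plxna2 was at 0.597 FPKM in control and 28.3 in induced cells, the Slit receptor Robo1 at 4.81 and 36.7, the ephrin receptor Epha4 at 3.28 and 22.3, and the semaphorin and VEGF coreceptor Nrp1 at 0.229 and 5.03. The ephrin ligand Efna5 was at 0.400 and 7.88. The lower member was Sema6a, at 13.3 and 5.42. In the 22 members above 1 FPKM in both libraries the median was 0.17, the same as over all genes, with 6 higher and 1 lower, where 6.44% of all such genes were higher and 1.62% lower. The other 14 members entered through the induced library alone and so had to be higher.

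Neural adhesion molecules and cadherins gave a mixed picture. Of 15 compared adhesion molecules 6 were higher, none lower, against 9.72% and 1.83% of all genes (median 0.93). Ncam1 was at 0.497 and 8.82 FPKM and Nrcam at 1.28 and 12.6, next to Cntn2. Of 19 compared cadherins and protocadherins 8 were higher and 2 lower (median 0.66), 7 of the 19 passed through the induced library alone, and the 12 above 1 FPKM in both had 3 higher, 2 lower and a median of -0.02. Cdh11, a cadherin of mesenchymal and neural cells, was at 1.25 and 42.1, and Fat4, an atypical cadherin, at 0.0344 and 4.65. Cdh2 (N-cadherin) was at 5.24 and 16.4 and Cdh1 (E-cadherin) at 124 and 78.8, so the epithelial cadherin was still the more abundant of the pair in the induced library. Cdh3 (6.67 and 2.06) and Pcdh1 (15.7 and 4.53) were lower.

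Many homeobox and LIM factors passed the filter through the induced library alone. Of 16 compared Dlx, Msx, Irx, Meis and Pbx genes and related homeobox genes 13 were higher and 2 lower (median 1.76). The shares over all genes were 9.72% and 1.83%. Pbx3, a cofactor of Hox proteins, was at 5.05 and 51.0 FPKM, Dlx6 at 0.0506 and 5.75, Irx2 at 0.333 and 6.86, Meis1 at 0.391 and 7.62, and Meis2 at 0.896 and 6.69. Six4 (10.98 and 4.23) was among the lower ones. Among the 7 above 1 FPKM in both libraries 4 were higher and 2 lower, and the other 9 passed through the induced library alone. Of 7 compared LIM-only and LIM-homeodomain genes 5 were higher and none lower (median 1.87), but 4 of the 7 passed through the induced library alone, and the 3 above 1 FPKM in both had 1 higher and a median of -0.13. Beside Lmo1, Lmo4 was at 22.1 and 98.6 FPKM, Lmo3 at 0.0572 and 3.99, and the LIM-homeodomain factor Lhx9 at 0.0829 and 2.95. The adaptor Ldb1, which binds LIM domains, was at 51.9 and 47.3, and Lmo2 at 1.65 and 1.31. Lmo4 was thus higher although it was the LIM-only factor with the highest control level.

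Hox and Cdx genes, which give cells their position along the body axis, were low. Of 29 listed only 10 were compared, and all 10 passed through the induced library alone and so had to be higher, 7 of them by 2-fold. Summed over the list, the level was 6.67 FPKM in control and 30.0 in induced cells. Hoxb4 was the most abundant in induced cells, at 0.320 and 4.59, and Hoxb2 was at 0.723 and 3.46. The members with the highest levels belong to the 3' part of the A and B clusters, while Hoxa9 was at 0.0319 and 0.0609 and Hoxc9 at 0.0186 and 0.0713.

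Integrins are receptors for matrix proteins such as laminins. Of 18 compared integrins and laminins 11 were higher and none lower, against 9.72% and 1.83% of all genes (median 1.19), and in the 12 above 1 FPKM in both libraries 6 were higher, with a median of 1.05. Itga6, an integrin chain that binds laminin, was at 25.4 and 124 FPKM, its partner Itgb1 at 57.6 and 126, and Itgav at 4.10 and 16.3. The laminin chains Lama4 (0.303 and 18.6), Lamb2 (3.45 and 19.3) and Lamc1 (51.3 and 134) were also higher. Lama1, the alpha chain of early embryonic laminin, was at 5.58 and 4.10. Of 16 compared collagens 5 were higher and none lower (median 0.65), and 7 of the 16 passed through the induced library alone. The 8 above 1 FPKM in both had 3 higher and a median of 0.64. After Col1a2 the largest difference was that of the fibrillar collagen Col27a1, at 0.470 and 7.73, while Col18a1 was at 99.1 and 52.9.

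Because the stem cells had been kept on feeders, fibroblast markers were read beside these matrix genes. All 20 listed fibroblast markers were compared, 10 were higher and none lower, against 9.72% and 1.83% of all genes (median 1.01). Of the 20, 19 lay above 0. However, 9 of the 20 passed through the induced library alone and so had to lie above 0. In the 11 above 1 FPKM in both libraries 6 were higher and none lower, with a median of 1.25. Their summed level was 33.6 FPKM in control and 170 in induced cells, of which Col1a2 alone accounted for 80.2. The defining marker Col1a1 was at 2.01 and 4.13, Col3a1 at 0.672 and 2.20, Postn at 0.143 and 1.5, Lum at 0.319 and 1.13, Dcn at 1.46 and 2.34, and Thy1 at 4.73 and 4.38. The actin-binding protein Tagln was at 3.38 and 20.3. Apart from Col1a2 the collagen markers thus stayed below 5 FPKM in both libraries. The part of feeder or fibroblast-like cells in the matrix differences was not tested.

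The general pluripotency list showed the largest downward median among lists above 10 compared members. All 16 members were compared at 1 FPKM or more in both libraries, 8 were lower, none higher, against 1.62% and 6.44% of all such genes. In addition, 16 of 16 lay below 0 (median -0.98, and -1.13 and -0.93 under the 2 scalings). Their summed level was 4669 FPKM in control and 2062 in induced cells. Pou5f1 (Oct4), the central pluripotency factor, was at 890 and 436 FPKM, and its partner Sox2 at 135 and 66.7. Utf1, a chromatin factor of stem cells, was at 320 and 100.2, and Tdgf1, the Nodal coreceptor Cripto, at 412 and 140. Zscan10 was at 66.6 and 24.5 and Jarid2, which recruits Polycomb complexes, at 100 and 41.0. Even at the lower level Pou5f1 remained among the abundant transcripts.

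Naive factors lay on both sides of 0. Of 16 compared, 2 were higher and 3 lower, against 9.72% and 1.83% of all genes (median -0.16). Fgf4 (61.6 and 24.7 FPKM), Pecam1 (8.16 and 3.49) and Tcl1 (8.33 and 3.66) were lower. Klf5 (17.9 and 40.8) and Gbx2 (11.9 and 25.3) were higher, Gbx2 with 0.88 no longer by 2-fold once scaled to a median ratio of 1. Esrrb was at 26.5 and 20.3, Nr0b1 at 28.7 and 25.9, and Klf4 at 5.38 and 8.97. Of 13 compared primed epiblast genes 5 were lower and 2 higher (median -0.73). Beside Foxd3 and Otx2 the lower members were Dnmt3a, Dnmt3b and the Wnt effector Lef1 (16.8 and 3.75), and the higher ones Cdh2 and Wnt8a (7.67 and 17.4). Fgf5, the usual marker of the primed state, was at 25.4 and 14.9, and Nodal at 46.7 and 27.8.

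All 3 genes of de novo DNA methylation were lower. Dnmt3b, a methyltransferase, was at 348 FPKM in control and 92.7 in induced cells, Dnmt3a at 90.4 and 38.1, and their cofactor Dnmt3l at 190 and 55.2. The maintenance enzyme Dnmt1 (50.9 and 46.7) and its partner Uhrf1 (106 and 94.8) differed little. Among the Tet dioxygenases, which oxidise methylated cytosine, Tet1 was at 36.4 and 18.3 and Tet3 at 2.37 and 6.87. Over the 17 compared genes of this list 4 were lower and 2 higher (median -0.16). Of 23 compared Polycomb genes 2 were higher and 1 lower, against 9.72% and 1.83% of all genes (median -0.14). Bmi1 (3.62 and 12.4) and Phc2 (11.9 and 35.6), both of the Polycomb repressive complex PRC1, were higher, and the core genes Ezh2 (54.7 and 49.7), Eed (68.3 and 58.6) and Suz12 (55.9 and 50.6) differed by less than 2-fold.

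Genes of other germ layers were mostly too low to compare. Of 25 primitive streak and mesoderm genes 6 were compared and none passed 2-fold in either direction. T (brachyury) was at 0.856 and 1.25 FPKM and Eomes at 4.36 and 7.45. Of 24 endoderm genes 14 were compared, with 2 higher and 5 lower, against 9.72% and 1.83% of all genes (median -0.29). Of the 14, 4 passed through the control library alone, and the 8 above 1 FPKM in both had 2 higher and 2 lower (median -0.05). Among the 5 lower ones were Lrp2, Cubn, Spink3 and Dab2 (12.3 and 3.22), an adaptor in receptor uptake. Apoe, an apolipoprotein, was at 137 and 383, and Trf, which encodes transferrin, at 1.23 and 4.33. The secreted endoderm markers Ttr (0.150 and 0.0955) and Apoa1 (0.0752 and 0.0956) were near 0 in both libraries. Of 18 blood and endothelial genes 7 were compared and 4 were lower, none higher (median -1.02), but 4 of the 7 passed through the control library alone and had to be lower, and the 3 above 1 FPKM in both had 1 lower and a median of -0.20. The lower genes, all at under 10 FPKM, included Etv2 (3.03 and 0.888), Tal1 (1.76 and 0.257) and Sox7 (1.28 and 0.127). The globin Hbb-bh1 was at 0.355 and 0.111.

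Epithelial, crest and placental genes split within their lists. Of 14 compared surface ectoderm and epithelial genes 5 were higher and 2 lower (median 0.25). Of the 14, 3 passed through the induced library alone and so had to lie above 0. The 11 above 1 FPKM in both had 2 higher, 2 lower and a median of 0.07. Grhl2 (22.0 and 7.93 FPKM), a factor that maintains epithelia, and Esrp1 (24.6 and 9.52), an epithelial splicing regulator, were lower. Dlx5 (0.188 and 3.91) and Krt19 (1.09 and 4.43) were higher, while Epcam stood at 93.2 and 82.6. Of 11 compared neural crest genes 2 were higher, Zeb2 (0.407 and 8.04) and Twist1 (1.58 and 10.1), both drivers of epithelial-mesenchymal transition, and 1 was lower, Foxd3. Here 4 of the 11 passed through the induced library alone, and the 7 above 1 FPKM in both had 1 higher and 1 lower (median 0.31). Sox10, which defines migrating crest, was at 0.198 and 0.252. Of 6 compared trophoblast genes 1, Gata3 (0.120 and 1.83), was higher, and Elf5 was at 0.0153 and listed at 0. Germ cell genes had 1 lower and no higher member of 16 compared. Over all genes 1.83% were lower and 9.72% higher.

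**Figure D4:**
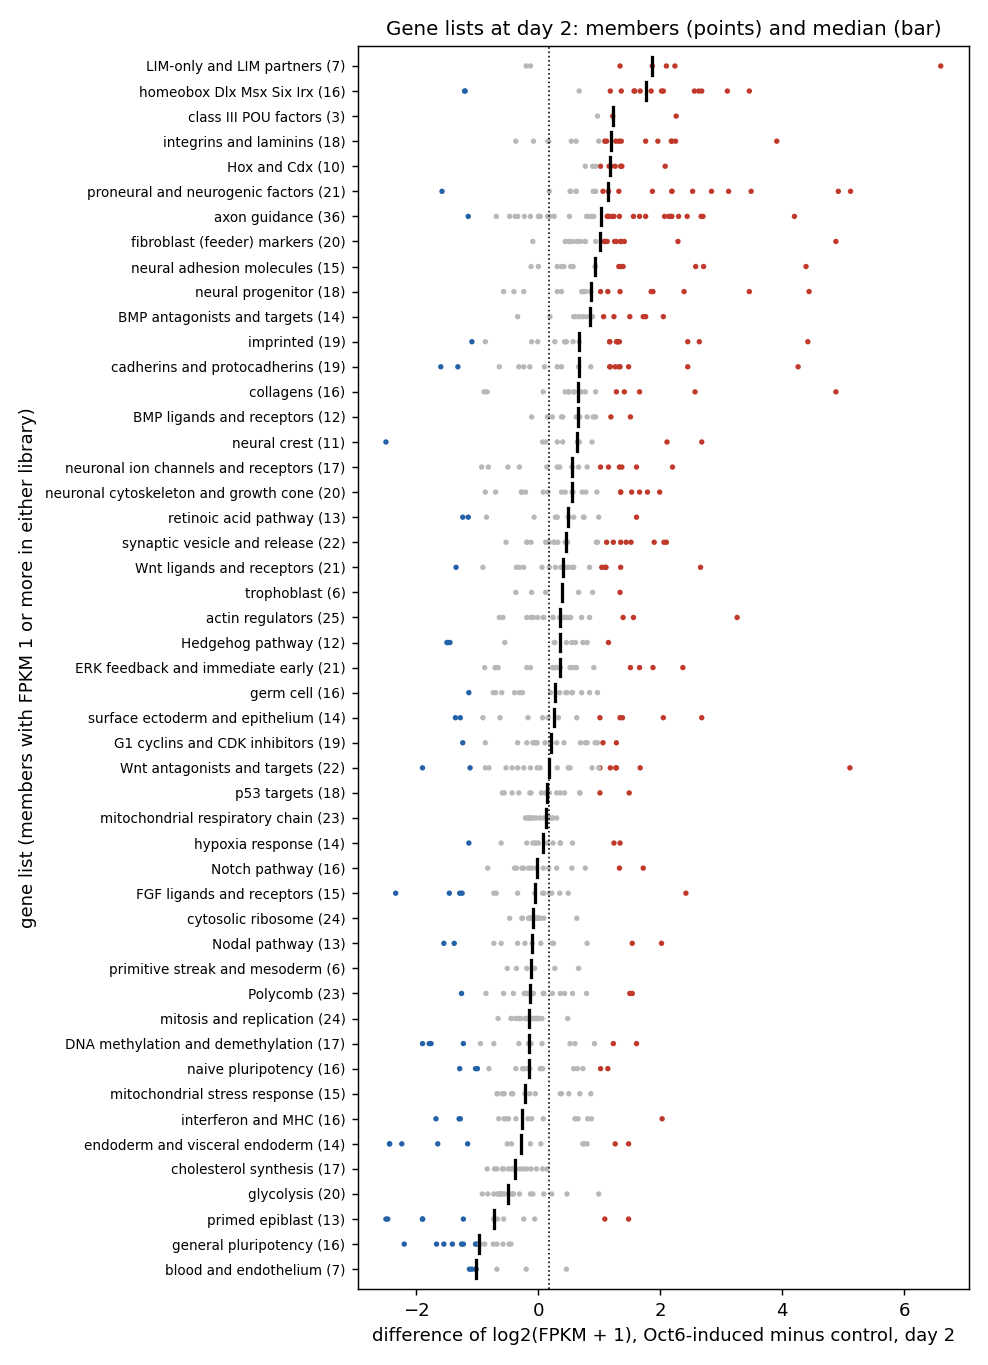
Differences of log2(FPKM + 1), Oct6-induced minus control at day 2, for the compared members of the gene lists named on the vertical axis (number in brackets). Points are genes, red where at least 2-fold higher and blue where lower, short bars are list medians and the dotted line is the median over all genes compared, 0.17; the lists run from LIM-only factors at 1.87 to blood and endothelium at -1.02. Over all 50 lists, scaling to a median ratio of 1 turns the sign of 4 medians and quantile normalisation that of 6. Among the latter are retinoic acid genes (0.49 to -0.01), germ cell genes (0.28 to -0.22) and Wnt antagonists (0.17 to -0.16). Both counts include the 2-cell-stage list, which has 2 compared members and is not drawn (0.11 to -0.37 after quantile normalisation).

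The BMP pathway is known to oppose neural fate. Of 12 compared ligands, receptors and mediators 2 were higher, none lower, against 9.72% and 1.83% of all genes (median 0.65): Smad5, a signal mediator, at 10.01 and 30.3 FPKM, and the receptor Acvr2a at 4.19 and 10.8. The ligand Bmp4 was at 4.73 and 6.56. Of 14 compared antagonists and targets 6 were higher, none lower (median 0.84). These held both target genes and antagonists. The targets Id1 (35.1 and 101) and Id2 (27.8 and 96.8), inhibitors of basic helix-loop-helix factors, and Smad6 (0.975 and 5.51) were higher, as were the secreted antagonists Grem1 (1.77 and 5.54) and Fst (5.77 and 13.2). The antagonist Nog was at 0.0158 and 0.243.

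Nodal signalling, which keeps cells primed and specifies mesendoderm, had members in both directions among 13 compared (2 higher, 2 lower, median -0.10). The lower ones were Tdgf1 and the ligand Gdf1 (7.31 and 2.18 FPKM), and among the higher ones was the feedback inhibitor Lefty2 (39.8 and 118). Lefty1 was at 163 and 152. The FGF list had 4 lower and 1 higher of 15 compared (median -0.06). All lower members were ligands: Fgf4, Fgf15, Fgf17 (8.62 and 3.05) and Fgf18 (3.44 and 0.616). Fgf11, an intracellular FGF homologue, was at 0.644 and 7.81, and the receptor Fgfr1 at 21.4 and 22.5. ERK is the kinase that FGF receptors activate. Of 21 compared ERK feedback and immediate early genes 4 were higher and none lower, against 9.72% and 1.83% of all genes (median 0.36), Egr1 at 4.80 and 28.9, Junb at 5.18 and 21.8, Fos at 0.872 and 4.90 and Atf3 at 0.386 and 2.95, while the feedback phosphatase Dusp6 was at 48.3 and 74.7 and Spry4 at 31.1 and 18.8.

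The Wnt lists had members in both directions. Of 21 compared ligands and receptors 5 were higher and 1 lower, against 9.72% and 1.83% of all genes (median 0.41). The receptor Fzd1 was at 0.460 and 8.20 FPKM, Fzd10 at 5.90 and 16.5, and the coreceptor Lrp6 at 8.81 and 19.2, whereas Fzd7, the most abundant Frizzled in control, was at 61.0 and 23.4. Of 22 compared antagonists and targets 6 were higher and 2 lower, with a median of 0.17 that became -0.16 after quantile normalisation. The 15 above 1 FPKM in both libraries had 2 higher, 2 lower and a median of -0.02. Among the 6 higher ones were Shisa3, Frzb (0.174 and 2.73), Sfrp1 (4.66 and 10.4) and Apcdd1 (1.33 and 4.63). Lef1 and Tcf7l1 (28.9 and 12.7), nuclear effectors of the pathway, were lower. Axin2, a common readout of the pathway, was at 2.63 and 4.09.

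The Hedgehog list had lower members among genes that are both components and known targets. Gli1, an effector and direct target of the pathway, was at 17.2 FPKM in control and 5.40 in induced cells, and the receptor Ptch1, also a target, was at 59.9 and 20.9. The signal transducer Smo was at 18.1 and 22.0 and the ligand Shh listed at 0 and at 0.0768. Over 12 compared genes of the list 3 were lower and 1, the surface protein Gas1 (1.07 and 3.60), was higher (median 0.36). Retinoic acid genes had 2 lower, the receptors Rarg (58.3 and 25.6) and Rxrg (5.99 and 1.95), and 1 higher, the binding protein Crabp1 (6.46 and 21.8), of 13 compared, and their median of 0.49 became -0.01 after quantile normalisation. Of 16 compared Notch genes 2 were higher and none lower, against 9.72% and 1.83% of all genes (median -0.03). The higher ones were the coactivator Maml3 (0.172 and 2.87) and Dlk1, an atypical ligand (2.83 and 8.61). The target Hes1 was at 9.67 and 7.30, and Hes5 at 0.0461 and 0.0296.

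Imprinted genes, expressed from 1 parental allele and known as regulators of growth, held 9 higher and 1 lower member of 19 compared (median 0.67). Against this, 9.72% of all genes were higher and 1.83% lower. Of the 19, 18 were above 1 FPKM in both libraries. After Plagl1 the largest differences were those of Mest (37.1 and 237 FPKM) and Peg3 (10.3 and 61.1). Cdkn1c, an inhibitor of cyclin-dependent kinases, was at 30.1 and 74.3, Gnas at 112 and 254, Ndn at 9.29 and 22.1 and Sgce at 1.45 and 5.05. Phlda2 (35.04 and 15.9) was lower. Other members moved little, with the noncoding Meg3 at 93.1 and 112 and Igf2 at 3.56 and 5.16.

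Housekeeping and metabolic genes gave small differences. No member of the mitosis, glycolysis, cholesterol, respiratory chain, ribosome or mitochondrial stress lists passed 2-fold in either direction. Of 24 mitosis and replication genes 21 lay below 0 (median -0.16), with Mki67 at 18.99 and 18.8 FPKM and Pcna at 393 and 340. Of 20 glycolysis genes 16 lay below 0 (median -0.49), with Ldha at 1006 and 667 and the glucose transporter Slc2a1 at 177 and 98.7. Cholesterol synthesis genes had a median of -0.39 over 17 compared. The ribosome median was -0.09 over 24 genes and turned to 0.03 after quantile normalisation, and the respiratory chain median of 0.13 over 23 genes turned to -0.02 when scaled to a median ratio of 1.

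Cell cycle control, stress and immune lists held between 2 and 4 members past the threshold each, where 11.5% of all genes were past it. Of 19 compared G1 genes Cdkn1c and the inhibitor Cdkn2c (0.390 and 1.89 FPKM) were higher and Cdk6 (9.11 and 3.27) was lower. Of 18 compared p53 targets Perp (12.96 and 38.3) and Fas (0.369 and 1.75) were higher, while Cdkn1a was at 21.5 and 26.6. Both directions appeared among 16 compared interferon and MHC genes, where B2m, the light chain of MHC class I, was higher (12.2 and 52.7) and Irf1 (43.4 and 17.1), Ifitm3 (71.8 and 29.1) and the immunoproteasome subunit Psmb8 (4.44 and 0.693) were lower. Of 25 compared actin regulators the severing proteins Scin (0.686 and 15.2) and Gsn (2.73 and 9.99) and the monomer-binding Pfn2 (7.83 and 22.1) were higher. Among 14 hypoxia genes Vegfa (2.58 and 8.03) and Ankrd37 (3.57 and 9.78) were higher and Egln3 (17.3 and 7.32) lower, with a list median of 0.08 that turned to -0.04 and -0.11 under the 2 scalings.

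The day 2 genes were then read in the day 4 and day 6 pairs, libraries that the day 2 values do not use. Of 1139 day 2 higher genes compared at day 4, 429 (37.7%, Wilson 95% interval 34.9 to 40.5) were again at least 2-fold higher, and 990 (86.9%) lay above 0, with a median difference of 0.76. At day 4, 6.09% of all compared genes were higher and 8.2% past the threshold in either direction. Of the genes compared on both days 5.59% were higher at day 4. The 429 genes made up 55.6% of the 772 genes higher at day 4. At day 6, where 3.37% of all genes were higher and 5.47% past the threshold in either direction, 168 of 1093 (15.4%, 13.4 to 17.6) were higher again, or 38.9% of the 432 higher at day 6, and the median was 0.25. In all, 141 of the 1223 genes (11.5%) were higher on each of the 3 days, and 734 (60%) were under 2-fold on both later days. The Wilson intervals cover counting error only.

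A smaller share of the day 2 lower genes recurred. Of 197 compared at day 4, 40 (20.3%, 15.3 to 26.5) were again lower, against 2.11% of all genes, and of 186 at day 6, 13 (6.99%, 4.13 to 11.6), against 2.1%. The medians were -0.38 and -0.05. Over all 3 days 10 of the 230 (4.35%) were lower. Lrp2 and Cubn stayed apart: Lrp2 was at 22.2 FPKM in the control of day 4 against 1.81 with induction, and at day 6 at 11.3 against 1.34, and Cubn at 15.02 against 0.799 and at 11.2 against 1.27. For Otx2 the day 4 pair held 94.6 and 31.0 and the day 6 pair 56.0 and 30.5, so the gap narrowed to less than 2-fold. For Wt1 the control itself was below 1 FPKM at both later days. For Mycn the day 4 pair held 25.8 and 22.3 and the day 6 pair 27.2 and 20.6, since the control was lower than at day 2 and the induced library higher.

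Leading higher genes differed in how long they stayed high. With induction Lmo1 was at 33.3 FPKM on day 4 and 12.4 on day 6, against 3.04 and 1.90 in control. Ebf3 was at 8.82 and 6.2 in induced cells against 0.0424 and 0.661, and Insm1 at 8.12 and 5.69 against 0.0785 and 0.294. In each of these the induced level was highest at day 2 and the control stayed under 4 FPKM. For Sox21 the difference was 2.90 at day 4 and 0.32 at day 6, as the induced level was 9.64 and then 4.05 and the control reached 3.05. For Col1a2 it was 3.97 and then 0.19, the day 6 pair holding 9.72 and 11.2. For Nrp1 the day 4 pair held 4.01 and 3.15 and the day 6 pair 33.1 and 25.6, so the control was by then above the induced library. Fabp7 followed another course, with induced levels of 16.6 on day 4 and 58.2 on day 6 against 2.03 and 2.31, and Tubb3 with 28.6 and 56.2 against 2.92 and 10.3.

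**Figure D5:**
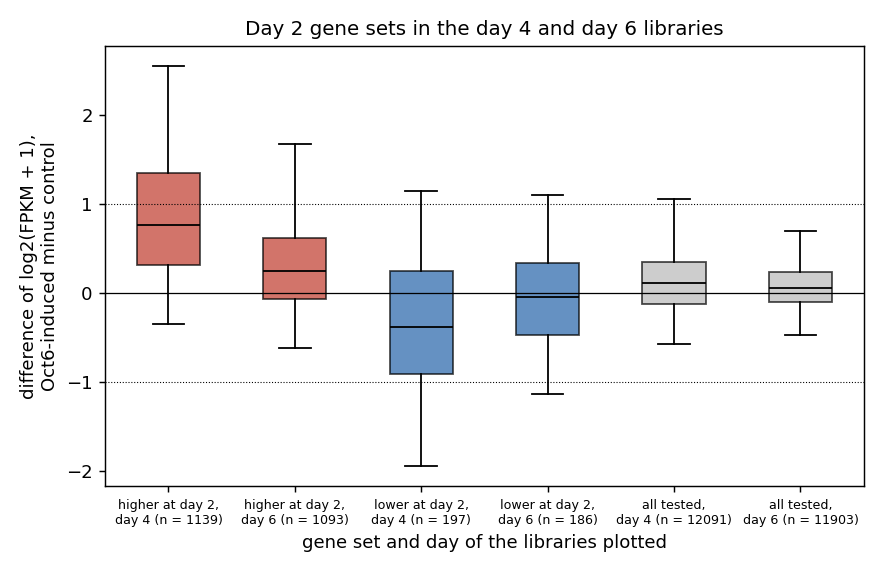
Differences of log2(FPKM + 1), Oct6-induced minus control, at day 4 and day 6 for the genes higher (red) or lower (blue) at day 2 and for all genes compared on both days (grey). Boxes span the middle 50% of genes with the median as a line and whiskers reach from the 5th to the 95th percentile; the red medians are 0.76 and 0.25, the blue ones -0.38 and -0.05, and dotted lines mark a 2-fold step.

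Oct6 binding was available from the authors' list of 7979 ChIP peaks, called at day 4 in cells labelled as overexpressing Oct6, each 133 bp wide with a score of 7.6 to 145.6 (median 11.4). Peaks from day 4 describe binding in another sample than the day 2 RNA. A peak centre lay within 10 kb of an annotated gene start for 273 of 1207 higher genes (22.6%, Wilson 95% interval 20.3 to 25.1) and for 32 of 218 lower genes (14.7%, 10.6 to 20), against 2296 of 12381 compared genes (18.5%, 17.9 to 19.2). Among genes at least 4-fold higher it was 65 of 246 (26.4%, 21.3 to 32.3). With peaks above the median score alone, the shares were 7.13%, 6.42% and 6.53%, so the order held with little distance between the sets. Seen from the peaks, genes with a peak had a median difference of 0.18 and 11.9% of them were higher. Genes without had 0.17 and 9.26%.

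The highest peak near any gene past the threshold was that of Sox2, with a score of 38.0 (rank 25), 3605 bp upstream of the start and in an intron of the overlapping noncoding gene Sox2ot. Wwtr1, which encodes the Hippo pathway coactivator TAZ and was at 6.36 and 29.9 FPKM, had a peak of score 31.6 (rank 45) centred 30 bp past its start. The next peak, of score 29.1, lay near 4 microRNA genes of the same cluster, Mir18, Mir19a, Mir19b-1 and Mir92-1, whose FPKM values rest on very short transcripts. Peaks near other genes named here had lower scores. Pou3f1 itself had 2 peaks, the higher of them of score 12.7 at 434 bp upstream, and Ncam1 1 of score 16.5 at 92 bp upstream. Mycn, a lower gene, had a peak of score 12.7 at 13 bp past its start. These last genes, and those shown next, were chosen after their values were seen.

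The peak sequences near 5 genes past the threshold are shown, for genes higher (Pou3f1, Ncam1, Col1a2, Pcdh8) and lower (Sox2). A link between these peaks and the day 2 differences was not tested. They are the plus strand of mm9, 5′ to 3′, over the whole peak: Pou3f1 chr4:124334389-124334521 (intergenic), Ncam1 chr9:49607053-49607185 (intergenic), Sox2 chr3:34545256-34545388 (in a Sox2ot intron), Col1a2 chr6:4457730-4457862 (in a Col1a2 intron), Pcdh8 chr14:80171147-80171279 (intergenic, 94 bp upstream of the start). Capitals mark the octamer ATGCAAAT, the sequence that POU factors are known to bind, searched on both strands.
Pou3f1: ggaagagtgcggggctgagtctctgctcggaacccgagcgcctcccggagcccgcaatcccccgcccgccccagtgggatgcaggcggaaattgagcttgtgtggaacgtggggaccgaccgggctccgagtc
Ncam1: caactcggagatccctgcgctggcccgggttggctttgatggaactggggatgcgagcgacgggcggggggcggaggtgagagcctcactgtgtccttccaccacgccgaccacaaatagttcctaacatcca
Sox2: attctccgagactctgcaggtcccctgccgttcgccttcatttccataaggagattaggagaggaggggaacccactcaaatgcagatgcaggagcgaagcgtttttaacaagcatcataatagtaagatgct
Col1a2: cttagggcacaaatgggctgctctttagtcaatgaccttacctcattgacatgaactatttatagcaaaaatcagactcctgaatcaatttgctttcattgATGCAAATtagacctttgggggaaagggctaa
Pcdh8: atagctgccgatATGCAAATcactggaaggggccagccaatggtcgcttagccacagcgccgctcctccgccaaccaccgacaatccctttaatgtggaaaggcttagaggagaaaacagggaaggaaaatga

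The Col1a2 and Pcdh8 peaks hold the octamer, and the other 3 hold no match to these letters. Over all 7965 peaks on assembled chromosomes 334 (4.19%) held it, against 171 of 15930 flanking windows of the same width (1.07%). Among the 1057 peaks of highest score, a set that includes all peaks tied at its lower limit, it was 56 (5.30%). Among the highest peaks within 10 kb of higher genes it was 8 of 266 (3.01%, 1.53 to 5.82), and of lower genes 0 of 30, which allows a share of up to 11.4%. The 7-letter core ATGCAAA, which the octamer contains, was in 9.03% of all peaks, 3.47% of flanks and 5.64% of the highest peaks near higher genes. In promoters, 250 bases before to 50 after the start in RefSeq on GRCm38.p6, the octamer was in 17 of 841 higher genes (2.02%), 7 of 135 lower genes (5.19%, 2.53 to 10.3) and 150 of 8853 compared genes (1.69%, 1.45 to 1.98). The share near day 2 higher genes was thus below that over all peaks, whose 4.19% lies within its interval, and most of these peaks held no octamer.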

How the data were processed

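RNA-seq of embryoid bodies gave 6 libraries, 1 per arm and day, of which the day 2 pair is compared here, with the other 4 set beside it. The submitters' processing notes list build mm9, HOMER, Cuffdiff, Cufflinks 1.3.0 and TopHat 1.4.1, with no role stated. The authors deposited FPKM values per gene symbol, and a peak list with positions and a score per peak, used only to rank and describe peaks. Overlapping genes and close copies are uncertain, since strand and multi-mapping treatment are not given in the sources used here.

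Groups came from sample titles. A pseudocount of 1 and a minimum of 1 FPKM in either library were applied. The genes and the 50 gene lists were chosen with earlier results of these data known. Named genes were Pou3f1, the 15 largest differences each way, up to 5 members per list, the 8 changed genes with the highest peaks within 10 kb and those nearest the threshold. Other list members, among them markers of cell types and genes under 2-fold, and some genes with peaks were named after their values were seen. Low values below 0.3 FPKM gave relative depth. Gene positions came from GENCODE on NCBIM37, the assembly behind mm9 (12381 compared genes matched, 98.4%), and promoter sequences from RefSeq on GRCm38.p6. The 14 peaks of unplaced contigs were not placed. Intervals are Wilson intervals at 95% and hold counting error alone. Alternatives were 2 scalings of the libraries, another pseudocount, other filters on low values and other peak limits. Steps were tested on simulated data. Scripts ran in Python 3.11.15 with matplotlib 3.10.9, pandas 2.3.3 and numpy 2.4.6. A few genes and peak sequences that the rules take are not reported here.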

Additional observations from a re-analysis of the deposited data

Results flagged for a closer look

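Several genes past the 2-fold threshold at day 2 were past it in the other direction at a later day. Each comparison rests on 1 library per arm, and the difference between days was not tested. Of the day 2 higher genes compared again, 16 (1.4%) were lower at day 4, against 2.11% of all genes. At day 6 it was 27 (2.47%), against 2.1%. Of the day 2 lower genes compared again, 12 (6.09%) were higher at day 4, against 6.09% of all genes. At day 6 it was 15 (8.06%), against 3.37%. Among the genes named here, the smooth muscle and myofibroblast genes Tagln and Acta2 were higher at day 2, by 2.29 and 1.35 on the log2(FPKM + 1) scale. Later, Tagln stood at -1.09 (day 4) and -1.29 (day 6), and Acta2 at -1.03 and -2.28. The control library held 126 FPKM of Acta2 at day 6 and 0.494 at day 2, and the induced library 25.2 and 2.80. The keratin gene Krt19 had 1.38 at day 2, then -2.86 (day 4) and -1.09 (day 6). The Wnt antagonist Frzb had 1.67 at day 2 and -1.48 at day 6, and the imprinted gene Peg3 2.45 at day 2 and -1.15 at day 4. In the other direction, Tcl1 had -1.0 at day 2 and 1.24 at day 6. Amd1, whose close copies make it uncertain, had -3.19 at day 2 and 3.48 at day 4. The microRNA genes Mir19a (1.37 at day 2 and -2.06 at day 6) and Mir92-1 (-1.49 at day 2 and 1.29 at day 4) are short transcripts.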

How the results depend on the processing

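No paired analysis was possible because each arm had 1 library per day, and no library could be left out for the same reason. Without replicates the spread between cultures is unknown, differences of drug, line and Oct6 cannot be told apart, and values near 1 FPKM rest on few fragments. The 1223 higher genes became 731 after quantile normalisation, of which 728 were shared, 1950 with a pseudocount of 0.1 and 783 at 5 FPKM or more. The 230 lower genes became 451 after quantile normalisation and 383 with a pseudocount of 0.1. The median of all genes, 0.17, became 0.04 with the median ratio set to 1, -0.05 after quantile normalisation and 0.01 without a filter. Lists whose median lay at least 0.5 above that of all genes numbered 11, and 17 with a pseudocount of 0.1. The share of day 2 higher genes again higher at day 4 became 40.5% under the median ratio scaling. With a pseudocount of 0.1, the shares of lower genes again lower became 27.3% at day 4 and 12.9% at day 6. Shares of higher, lower and all genes with a peak were 17.6%, 10.6% and 15.3% within 5 kb, 45.6%, 29.4% and 39.8% within 50 kb, and 7.13%, 6.42% and 6.53% for peaks above the median score. Where not set by fewer genes being compared, the cause was not tested.

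Of 249 list medians under these settings 94 stayed, 133 moved and 22 turned sign. Under the median ratio scaling p53 targets became -0.01, hypoxia genes -0.04, respiratory chain genes -0.02 and 2-cell-stage genes -0.01. After quantile normalisation retinoic acid genes became -0.01, Wnt antagonists and targets -0.16, hypoxia genes -0.11, ribosome genes 0.03, germ cell genes -0.22 and 2-cell-stage genes -0.37. At 5 FPKM or more, ion channels became -0.13, cadherins -0.14, retinoic acid genes -0.07, streak genes 0.66, surface ectoderm genes -0.05, Wnt antagonists and targets -0.34, G1 genes -0.02, hypoxia genes -0.02 and 2-cell-stage genes -0.42. At that limit the streak value was that of Eomes alone, and the 2-cell-stage value that of 1 gene. Without a filter streak genes became 0.04, Notch genes 0.02 and 2-cell-stage genes -0.03. For the named genes it was the 2-fold call that was followed, which changed in 58 cases and stayed in 949, whatever the shift in value. Genes past the threshold in the main setting turned sign in 0 cases, and sign turns of genes under 2-fold were not counted.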
